A study of Mus musculus with 6 samples.

Results

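Transcripts of 41 cell cycle and DNA replication genes were measured in P2 (postnatal day 2) mouse cortex after deletion of Slc7a5, which encodes the light chain of the large neutral amino acid transporter LAT1. The genes were a fixed list matched by GENCODE M21 symbol, 41 of the 52550 gene identifiers counted, and were divided by role into 10 genes of G1, 10 genes of DNA replication and 21 mitotic genes. The knockout group was Slc7a5 fl/fl; Emx1Cre+ (n = 3) and the control group Slc7a5 fl/fl; Emx1Cre- (n = 3), both of strain C57BL6/J, with 1 cortical hemisphere per library. All animals thus carried the floxed alleles, and Cre was present in every knockout and in no control, so effects of Cre and of the deletion cannot be told apart. Cre under Emx1 control acts in the dorsal forebrain progenitors that give rise to excitatory neurons and much of the glia, so most interneurons, microglia and vessel cells in the same tissue keep the gene. The samples of a genotype are described as biological replicates and carry the letters A, B and C, whose meaning the labels do not give.

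Progress through the cell cycle is driven by cyclin-dependent kinases (CDKs), each switched on by a cyclin partner. D-type cyclins with CDK4 or CDK6, followed by E-type cyclins with CDK2, release E2F factors from RB proteins in G1, and E2F factors then drive the genes of DNA synthesis. Genes of mitosis are driven later, through the MuvB complex with B-MYB and FOXM1, and many of their promoters carry a short element called CHR beside CCAAT boxes bound by NF-Y. In the newborn mouse cortex most neurons have left the cycle, and dividing cells are mainly the remaining progenitors, glial precursors and cells of vessels and microglia.

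The promoter sequence of a member shows these elements, and 5 windows are printed because Cdkn1b, Hmmr and Cenpf were among the members with the smallest p-values for genotype, Mcm6 held the most E2F matches and Cdk1 held both an E2F and a CHR match. Each is the RefSeq window of 250 bases before and 50 after the annotated start on GRCm38.p6, printed in the direction of the gene. Capitals mark every match, on either strand, to E2F (TTTCGCGC, TTTGGCGC or TTTCCCGC), CHR (TTTGAA) or CCAAT.
Cdkn1b (chr6:134920151-134920450, plus strand): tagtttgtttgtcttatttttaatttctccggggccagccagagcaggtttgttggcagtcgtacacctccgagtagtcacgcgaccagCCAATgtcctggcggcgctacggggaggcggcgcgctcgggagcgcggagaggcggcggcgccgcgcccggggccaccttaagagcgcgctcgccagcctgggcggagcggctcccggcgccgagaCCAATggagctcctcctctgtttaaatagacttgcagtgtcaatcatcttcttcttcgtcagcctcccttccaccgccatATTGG
Mcm6 (chr1:128359656-128359955, minus strand): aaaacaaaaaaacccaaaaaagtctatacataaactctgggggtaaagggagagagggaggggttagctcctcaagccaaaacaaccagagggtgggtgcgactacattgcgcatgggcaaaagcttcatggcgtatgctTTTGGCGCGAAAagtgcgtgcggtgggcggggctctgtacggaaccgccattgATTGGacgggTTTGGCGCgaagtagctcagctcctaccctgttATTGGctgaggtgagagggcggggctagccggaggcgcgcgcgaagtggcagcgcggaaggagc
Cdk1 (chr10:69352863-69353162, minus strand): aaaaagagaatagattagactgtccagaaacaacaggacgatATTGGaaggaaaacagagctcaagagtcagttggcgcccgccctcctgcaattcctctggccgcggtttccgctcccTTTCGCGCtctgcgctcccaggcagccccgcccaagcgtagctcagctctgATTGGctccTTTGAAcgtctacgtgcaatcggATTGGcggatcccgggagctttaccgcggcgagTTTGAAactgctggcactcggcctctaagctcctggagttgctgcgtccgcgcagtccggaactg
Hmmr (chr11:40733388-40733687, minus strand): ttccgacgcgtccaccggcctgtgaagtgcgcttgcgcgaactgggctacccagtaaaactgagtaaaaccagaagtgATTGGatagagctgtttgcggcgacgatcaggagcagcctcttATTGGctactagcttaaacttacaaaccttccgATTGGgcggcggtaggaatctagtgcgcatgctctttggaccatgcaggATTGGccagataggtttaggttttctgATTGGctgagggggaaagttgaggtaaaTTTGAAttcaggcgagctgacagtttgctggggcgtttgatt
Cenpf (chr1:189688037-189688336, minus strand): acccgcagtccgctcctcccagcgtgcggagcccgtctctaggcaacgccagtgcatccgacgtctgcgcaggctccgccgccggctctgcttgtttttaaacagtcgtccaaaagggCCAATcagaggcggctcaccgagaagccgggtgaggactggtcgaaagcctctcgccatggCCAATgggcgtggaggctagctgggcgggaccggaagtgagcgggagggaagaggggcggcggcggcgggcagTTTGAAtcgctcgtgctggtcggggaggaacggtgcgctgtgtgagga

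RefSeq windows were found for 33 of the 41 genes, as 35 windows because Ccnd3 and Mcm7 have more than 1 start. They cover 6 of 10 G1 genes, 9 of 10 replication genes and 18 of 21 mitotic genes. Genes without a window were Ccnd1, Ccnd2, Ccne2, Cdkn1c, Mcm4, Ccna2, Aurkb and Tpx2. A CHR match lay in 13 of 18 mitotic windows (72.2%), 1 of 10 replication windows and 0 of 7 G1 windows, against 17.9% of all 32851 windows. The same 13 mitotic windows also held a CCAAT match, and 6.95% of all windows held both. In 12 of those 13 windows (92.3%) a CHR match began within 50 bases of the start, a distance chosen after the sequences were seen, against 27.6% of all windows with a CHR match. E2F matches were in 4 of 10 replication windows (40%), 1 of 18 mitotic windows (5.56%) and 1 of 7 G1 windows (14.3%), against 1.84% of all windows. CCAAT matches were in 16 of 18 mitotic windows (88.9%), 9 of 10 replication windows (90%) and 3 of 7 G1 windows (42.9%), against 37.4% of all windows. In Mcm6 a pair of the 3 E2F matches shared bases, and matches of different motifs overlapped in 1 member window, that of Mcm7. A match is a string of letters and not a measured binding site, and the classes therefore differ in promoter letters whatever their expression.

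**Figure D1:**
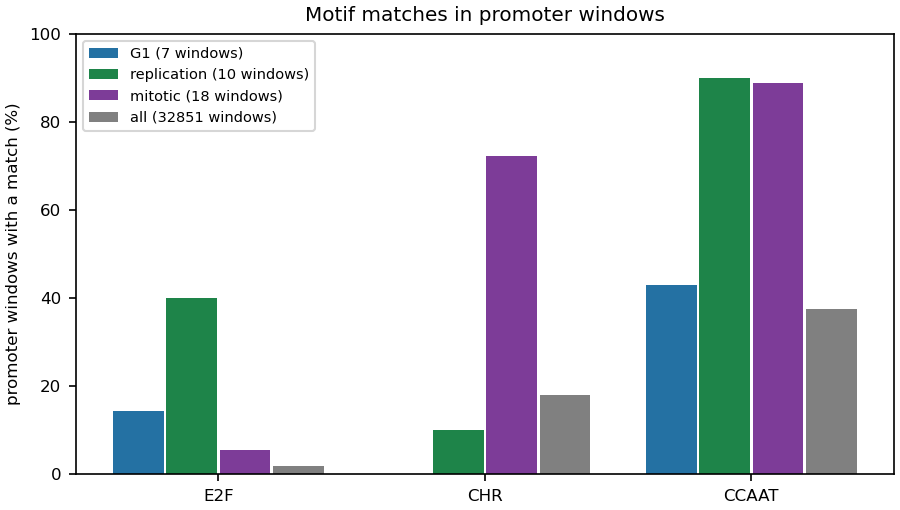
Share of RefSeq promoter windows (%, vertical axis) with at least 1 match to E2F, CHR or CCAAT in G1, replication and mitotic genes and in all 32851 windows (grey). The mitotic bar stands at 72.2% for CHR and the replication bar at 40% for E2F, against 17.9% and 1.84% of all windows.

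Gene counts per library were 8249436 to 10372582, and 14913 genes were tested. Slc7a5 itself had 15.6, 9.37 and 11.4 CPM (counts per 1000000 reads on genes) in knockouts A, B and C, against 20.2, 40.7 and 26.1 CPM in controls A, B and C, a log2 change of -1.25 ± 0.28 (SE). The groups did not overlap, so the labels matched the deleted gene in every library, although its edgeR adjusted p was 0.400. Which exons the floxed alleles remove is not stated in the labels. Reads outside exons were 27.4 to 27.9% of mapped reads in knockouts and 22.5 to 26.5% in controls, without overlap, and the part of this in any value below was not tested.

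All 41 genes passed the filter on low counts, with 11 to 8413 reads per library, and none differed between knockout and control cortex at an adjusted p under 0.05. The test was edgeR's quasi-likelihood F-test with Benjamini-Hochberg adjustment over all 14913 genes. The background was small too, since 5 of the 14913 genes (0.0335%) were called, 3 higher (0.0201%) and 2 lower (0.0134%) in knockouts. With the letter as a block 126 genes were called (0.845%, with 0.329% higher and 0.516% lower). DESeq2 called 26 of the 19070 genes to which it gave an adjusted p (0.136%, with 0.0682% in each direction). In both, the count of called members was also 0. At an unadjusted p under 0.05 there were 2 members by edgeR, Cdkn1b and Hmmr (4.88%), against 7% of all genes tested. Both had positive changes, as had 476 of the 1044 genes at that threshold, which is 3.19% of all genes tested. There were 2 with the letter block, against 11.9% of all genes. By DESeq2 there was 1, against 3.06% of the 25648 genes to which it gave a p, without the filter on low counts. Of the 14913 genes tested by edgeR, 761 had a DESeq2 p under 0.05. Among the members the edgeR adjusted p ran from 0.699 to 0.998, and the smallest under any of the 11 alternatives was 0.300, for Cdkn1b with the block.

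The fitted log2 changes were positive for 22 members (53.7%), against 50.2% of all genes, and negative for 19, from -0.36 for Cdk2 to 0.65 for Hmmr. Their median was 0.062, and that of all genes tested was 0.0011. By class the medians were 0.0087 in G1, 0.062 in replication and 0.090 in mitotic genes. Leaving out the 4 mitotic genes with a mean under 5 CPM, a limit chosen after the values were seen, put the mitotic median at -0.0041. The G1 median minus the mitotic median was -0.082, and it was 0.0085 without control C, 8.6e-05 without knockout A and 0.022 with unstranded counts. Within letters A, B and C it was -0.24, -0.096 and -0.075. These differences between classes are descriptions, without a test.

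The replicates limited what could be seen, but large changes lay outside most intervals. The 95% interval of the change lay within 2-fold in either direction for 39 of 41 members (95.1%), against 85.5% of all genes, with Hmmr and Aurkb as the exceptions. It lay within 1.5-fold for 28 members (68.3%), against 61.9% of all genes, and these were 7 of 10 G1 genes, 10 of 10 replication genes and 11 of 21 mitotic genes. Among the 5 genes called anywhere, the smallest ratio of a change to its SE was 6.53, and the highest ratio of a member was 2.29, for Cdkn1b. In bulk tissue, fewer cells of a type and less RNA per cell cannot be told apart.

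**Figure D2:**
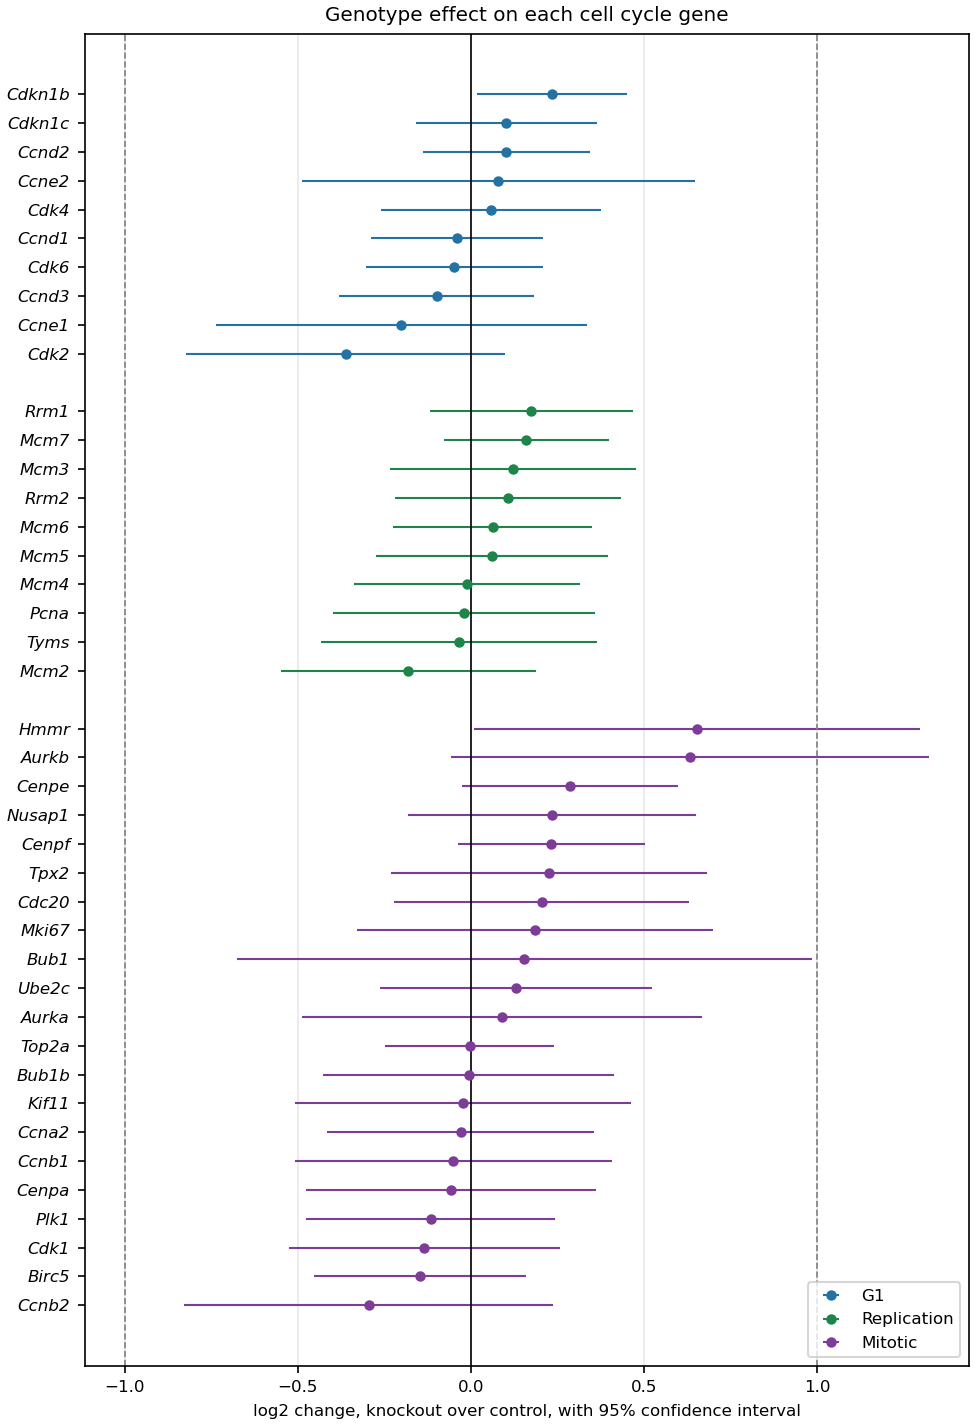
Fitted log2 change of each member (horizontal axis, knockout over control, n = 3 each) with its 95% confidence interval, by class and by size. Dashed lines mark 2-fold changes, and the intervals of 39 of 41 members lie between them, with Hmmr and Aurkb reaching past the upper one.

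Summed over each class, knockout and control libraries overlapped. Within letters the replication sum was higher in the knockout of all 3, which in letter C rested on Mcm7. The 10 G1 genes summed to 1227, 1062 and 1226 CPM in knockouts A, B and C, and to 1104, 1161 and 1044 CPM in controls A, B and C. The 10 replication genes summed to 209.5, 211 and 194 CPM in knockouts and to 193, 205 and 188 CPM in controls. The 21 mitotic genes summed to 274, 252 and 267 CPM in knockouts and to 246, 278 and 243 CPM in controls. In the G1 and mitotic sums, letter B stood apart from letters A and C, with the lowest knockout and the highest control. For G1 the low knockout B rested on Ccnd2, without which knockout B was the highest knockout. Ccnd2 made up 67.1% of the G1 sum. Without it the G1 genes summed to 361, 399.8 and 386 CPM in knockouts, against 347, 392.5 and 362 CPM in controls. That was higher in the knockout of all 3 letters, but this sum includes the CDK inhibitors Cdkn1b, itself higher in all 3 letters, and Cdkn1c. Of its cyclins and CDKs, Ccnd1, Ccnd3, Ccne1, Cdk2 and Cdk6 had negative fitted changes, and Ccne2 and Cdk4 positive ones. These sums carry no test. Mcm7 made up 20.7% of the replication sum. Without it the replication genes summed to 166.5, 167.7 and 148.8 CPM in knockouts A, B and C, against 156.6, 163.4 and 149.0 CPM in controls A, B and C. Letter C was then no longer higher in the knockout. Top2a made up 24.8% of the mitotic sum.

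**Figure D3:**
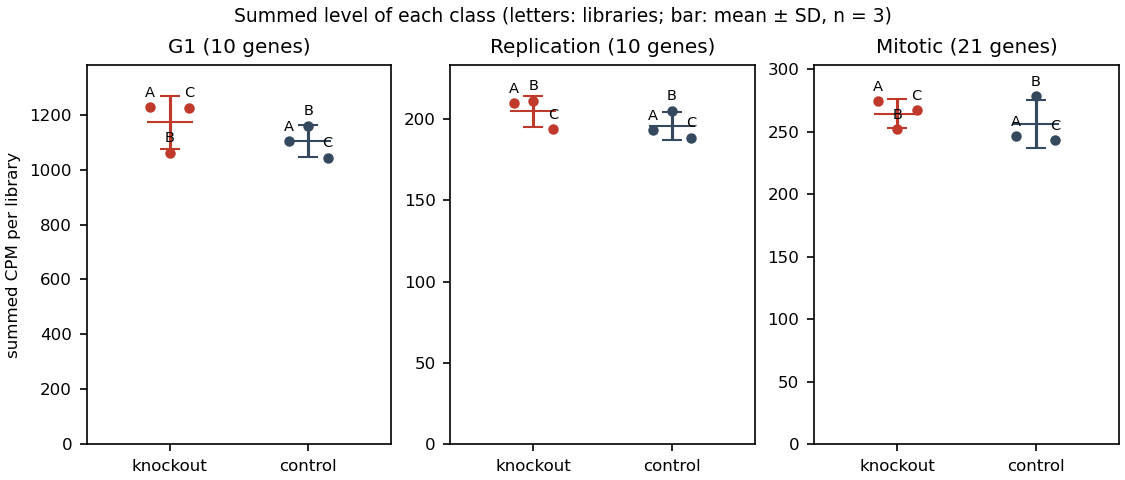
Summed CPM of each class in every library (points with their letters) and the mean ± SD of each group (n = 3), with knockouts left and controls right. The groups overlap in all 3 panels, and B is the lowest knockout and the highest control for G1 and mitotic genes. For G1 the low knockout B rests on Ccnd2.

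Groups did not overlap for 6 members (14.6%), against 12.2% of all genes tested. Knockouts were all higher for 5 of the 6 members, Cdkn1b, Mcm7, Cenpe, Cenpf and Aurkb. That is 12.2% of the members against 5.89% of all genes tested. Knockouts were all lower for 1, Cdk2, which is 2.44% against 6.28%. Within letters, 9 members (21.95%) were higher in the knockout of all 3 letters, against 16.2% of all genes, and 3 (7.32%) were lower, against 16.8%, namely Cdk2, Mcm2 and Birc5. The knockouts A, B and C held the highest value of 9, 10 and 9 members, and the controls A, B and C that of 3, 7 and 3. The lowest value was in knockouts A, B and C for 5, 8 and 8 members, and in controls A, B and C for 9, 3 and 8. The counts of highest and lowest values were not made over all genes, so they have no background to be set against.

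Levels set per length, in CPM per kilobase of exon averaged over all 6 libraries, placed several G1 genes highest and several mitotic genes lowest. The length was the union of a gene's exons over all annotated transcripts, so the order depends in part on the annotation. Ccnd2 stood highest at 81.1, followed by Cdkn1c at 30.9 and Cdk4 at 28.7. Cdkn1b at 18.6 and Ccnd1 at 12.6 came next, so G1 genes took the first 5 places. Pcna at 10.5 and Mcm7 at 9.38 led the replication genes, and Plk1 at 8.29 and Top2a at 7.17 the mitotic genes. The lowest were Hmmr at 0.672, Mki67 at 0.555 and Bub1 at 0.501 CPM per kilobase, all mitotic. Of the 40 pairs of neighbours in this order, 4 did not overlap over the 6 libraries, namely Ccnd2 above Cdkn1c, Cdk4 above Cdkn1b, Cdkn1b above Ccnd1 and Ube2c above Ccnd3.

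**Figure D4:**
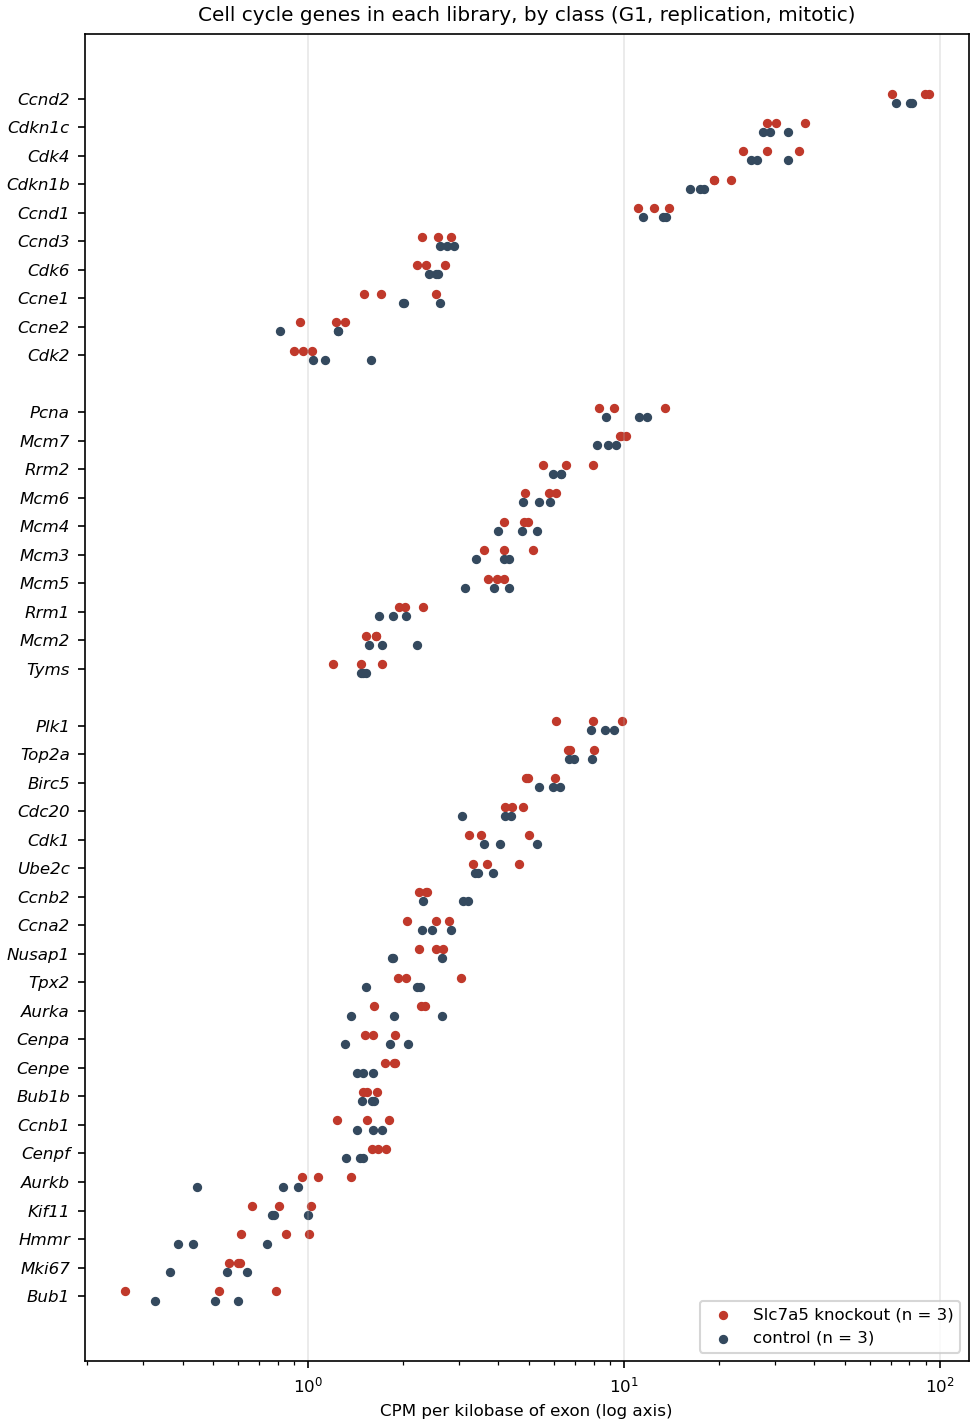
Level of each member in every library as CPM per kilobase of exon (log axis), with knockouts (red, upper points) and controls (dark, lower points), n = 3 each. Ccnd2 leads at a mean of 81.1 and Bub1 is lowest at 0.501, and red and dark points overlap in most rows.

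Among the G1 genes, the D-type cyclins carry growth signals to the cycle. Ccnd2, the cyclin D most abundant here, had 866, 662 and 841 CPM in knockouts A, B and C, against 757, 768 and 682 CPM in controls A, B and C. The groups overlapped, and knockout B was the lowest of the 6 libraries. Its log2 change was 0.10 ± 0.11 (SE), with a 95% interval from -0.14 to 0.34. Ccnd1 averaged 58.6 ± 6.61 CPM in knockouts and 60.2 ± 5.25 CPM in controls (SD, n = 3 each). Ccnd3 averaged 22.5 ± 2.38 CPM in knockouts and 24.1 ± 1.18 CPM in controls. The groups of both genes overlapped, and the fitted changes of the D cyclins had both signs.

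Cdk4 and Cdk6 encode the kinase partners of the D cyclins. Cdk4 averaged 95.1 ± 19.6 CPM in knockouts and 91.6 ± 13.9 CPM in controls. Its highest value, 116 CPM, was in knockout B and its next, 108 CPM, in control B. Cdk6 averaged 34.0 ± 3.60 CPM in knockouts and 35.1 ± 1.24 CPM in controls. The E-type cyclins and Cdk2 act at the entry to S phase. Ccne1 had 4.53, 3.99 and 6.75 CPM in knockouts, against 5.33, 6.95 and 5.30 CPM in controls, and Ccne2 averaged 4.04 ± 0.668 CPM in knockouts and 3.84 ± 0.856 CPM in controls.

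Cdk2 had 5.97, 6.40 and 5.61 CPM in knockouts A, B and C, against 7.05, 9.80 and 6.42 CPM in controls A, B and C. Every control was above every knockout, but by as little as 6.42 against 6.40 CPM, and control B stood high. Its log2 change was -0.36 ± 0.22 (edgeR adjusted p = 0.795). No other member had all knockouts below all controls.

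Cdkn1b and Cdkn1c encode inhibitors of the Cip/Kip family, which hold CDKs inactive in cells that leave the cycle. Cdkn1b had 87.9, 99.5 and 87.6 CPM in knockouts A, B and C, against 73.4, 81.5 and 78.9 CPM in controls A, B and C. All knockouts lay above all controls, with group means of 91.7 ± 6.80 CPM in knockouts and 77.9 ± 4.15 CPM in controls (SD, n = 3 each). The log2 change was 0.23 ± 0.10, a fold of 1.18 with a 95% interval from 1.01 to 1.37. This was the smallest p of the 41 (edgeR adjusted p = 0.699), and it did not pass the threshold. Cdkn1c had 57.8, 61.9 and 75.9 CPM in knockouts, against 56.2, 67.2 and 59.0 CPM in controls, and the groups overlapped.

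All 10 replication genes had intervals within 1.5-fold. Mcm2 to Mcm7 encode the hexameric helicase that opens DNA at origins. Mcm7, the most abundant of them, had 43.0, 43.4 and 45.0 CPM in knockouts A, B and C, against 36.4, 41.8 and 39.4 CPM in controls A, B and C. The groups did not overlap, and the log2 change was 0.16 ± 0.11 (edgeR adjusted p = 0.830). Mcm2 had 11.4, 11.4 and 10.6 CPM in knockouts, against 11.9, 15.4 and 10.8 CPM in controls, with a log2 change of -0.18 ± 0.17. Thus subunits of the same hexamer gave values on both sides of 0, since Mcm3, Mcm5 and Mcm6 were at 0.12, 0.062 and 0.063 and Mcm4 at -0.011, each with an SE of 0.14 to 0.17.

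Pcna, the sliding clamp of DNA polymerases, had 22.2, 32.4 and 20.1 CPM in knockouts A, B and C, against 21.0, 28.3 and 26.7 CPM in controls A, B and C. The groups overlapped, knockout B was the highest library and knockout C the lowest, and the log2 change was -0.020 ± 0.18. Rrm1 and Rrm2 encode the subunits of ribonucleotide reductase, which makes deoxynucleotides. Rrm1 averaged 23.0 ± 2.16 CPM in knockouts and 20.4 ± 2.02 CPM in controls, and was higher in the knockout of all 3 letters, with a log2 change of 0.17 ± 0.14. Rrm2 averaged 18.5 ± 3.34 CPM in knockouts and 17.2 ± 0.576 CPM in controls. Tyms, which makes thymidylate, averaged 8.88 ± 1.54 CPM in knockouts and 9.11 ± 0.175 CPM in controls. All of these differences were within the error of the fit at the threshold used.

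Among the mitotic genes, Cdk1 encodes the kinase that starts mitosis, and Ccna2, Ccnb1 and Ccnb2 its cyclins. Cdk1, whose promoter is printed above, had 15.95, 17.4 and 24.6 CPM in knockouts A, B and C, against 17.7, 26.2 and 19.96 CPM in controls A, B and C. The groups overlapped across most of their range. Ccnb1 averaged 6.42 ± 1.20 CPM in knockouts and 6.65 ± 0.598 CPM in controls, and Ccna2 10.1 ± 1.52 CPM in knockouts and 10.3 ± 1.11 CPM in controls. Ccnb2 had 3.60, 3.43 and 3.64 CPM in knockouts, against 3.52, 4.71 and 4.89 CPM in controls, where control A lay among the knockouts. Its log2 change, -0.30 ± 0.25, was the most negative of the mitotic genes.

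Mki67 and Top2a are common marks of dividing cells, Mki67 coating mitotic chromosomes and Top2a untangling DNA. Mki67 had 5.66, 6.03 and 6.13 CPM in knockouts A, B and C, against 6.44, 5.58 and 3.67 CPM in controls A, B and C. The knockouts lay inside the range of the controls. Top2a averaged 64.5 ± 7.004 CPM in knockouts and 64.7 ± 5.75 CPM in controls, a log2 change of -0.0041 ± 0.12 with a 95% interval from -0.25 to 0.24.

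Plk1 is a kinase of mitotic entry and spindle assembly and had the highest mitotic level per length. Its values were 21.6, 13.4 and 17.6 CPM in knockouts A, B and C, against 20.4, 19.1 and 17.3 CPM in controls A, B and C. Knockouts A and B were the highest and the lowest of the 6 libraries, and the log2 change was -0.12 ± 0.17. Aurka, a kinase of the spindle poles, averaged 5.26 ± 1.02 CPM in knockouts and 4.96 ± 1.63 CPM in controls. Aurkb, the kinase of the chromosomal passenger complex, had 4.01, 3.15 and 2.81 CPM in knockouts, against 1.31, 2.73 and 2.44 CPM in controls. Every knockout of Aurkb lay above every control, with control A the lowest, and the log2 change was 0.63 ± 0.33 (edgeR adjusted p = 0.737). Birc5, its partner in the same complex, averaged 18.0 ± 2.19 CPM in knockouts and 19.98 ± 1.55 CPM in controls. It was lower in the knockout of all 3 letters, so the fitted values of these partners had opposite signs.

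The centromere genes of the list were Cenpa, the histone variant that marks centromeres, and Cenpe and Cenpf, which act at the kinetochore. Cenpe had 16.2, 15.1 and 16.2 CPM in knockouts A, B and C, against 13.8, 12.3 and 12.8 CPM in controls A, B and C. Cenpf had 25.7, 24.5 and 27.1 CPM in knockouts A, B and C, against 22.5, 22.9 and 20.4 CPM in controls A, B and C. Neither gene's groups overlapped. The log2 changes were 0.29 ± 0.15 for Cenpe (edgeR adjusted p = 0.737) and 0.23 ± 0.13 for Cenpf (edgeR adjusted p = 0.766). Cenpa averaged 9.74 ± 1.13 CPM in knockouts and 10.1 ± 2.28 CPM in controls. Bub1 and Bub1b act in the spindle checkpoint. Bub1b averaged 6.66 ± 0.348 CPM in knockouts and 6.70 ± 0.312 CPM in controls. Bub1, with 11 reads in its lowest library, had 2.26, 3.43 and 1.14 CPM in knockouts, against 2.21, 2.60 and 1.43 CPM in controls.

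Of the spindle genes, Hmmr, a microtubule-binding protein also known as a hyaluronan receptor, had 4.63, 5.47 and 3.32 CPM in knockouts A, B and C, against 4.03, 2.11 and 2.34 CPM in controls A, B and C. Control A lay above knockout C, and the other controls were lower than every knockout. Its log2 change of 0.65 ± 0.30 was the largest of the 41, with a 95% interval from 0.0080 to 1.30 (edgeR adjusted p = 0.710). Tpx2, an activator of Aurora A, averaged 10.9 ± 2.86 CPM in knockouts and 9.35 ± 1.92 CPM in controls. Nusap1, which bundles spindle microtubules, averaged 10.1 ± 0.880 CPM in knockouts and 8.59 ± 1.91 CPM in controls, and Kif11, a spindle motor, 6.19 ± 1.34 CPM in knockouts and 6.33 ± 0.965 CPM in controls. Cdc20 and Ube2c serve the anaphase-promoting complex; Cdc20 averaged 8.34 ± 0.562 CPM in knockouts and 7.26 ± 1.33 CPM in controls, and Ube2c 10.1 ± 1.77 CPM in knockouts and 9.22 ± 0.663 CPM in controls. The groups of all these genes overlapped.

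**Figure D5:**
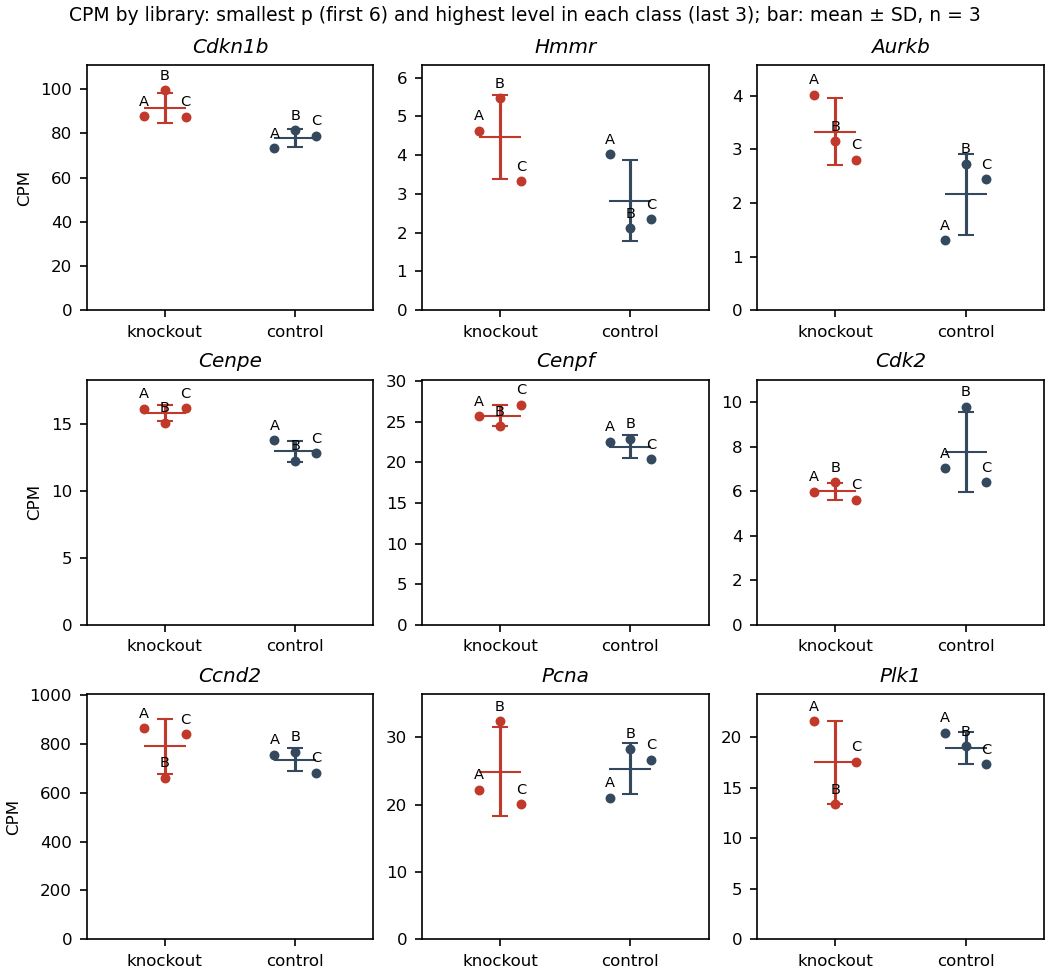
CPM in every library (points with their letters) and mean ± SD (bars, n = 3) of the 6 members with the smallest p and of the member with the highest level per kilobase in each class, with knockouts left and controls right. Groups do not overlap for Cdkn1b, Aurkb, Cenpe, Cenpf and Cdk2, and overlap for Hmmr, Ccnd2, Pcna and Plk1.

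A further 136 genes of the same machinery were counted, of which 129 were tested. By edgeR, with the letter block and by DESeq2, 0 of them were called, against 0.0335%, 0.845% and 0.136% of all genes. The last share is over 19070 genes. An unadjusted p under 0.05 was reached by 5 of them by edgeR (3.88%, against 7% of all genes) and by 11 with the block (8.53%, against 11.9%). By DESeq2 it was reached by 2 of the 129, against 761 of the 14913 genes tested by edgeR. Without the filter on low counts it was reached by 3.06% of the 25648 genes to which DESeq2 gave a p. Their median log2 change was 0.013, and 52.7% of them had positive changes, against 50.2% of all genes. The 29 tested regulators of G1 and of the RB and E2F families were positive in 11 and negative in 18, the 49 replication genes positive in 28 and negative in 21, and the 51 mitotic genes positive in 29 and negative in 22. The smallest p belonged to Hmgb2, a chromatin protein of proliferating cells, with 9.26, 15.5 and 8.21 CPM in knockouts, against 6.24, 7.19 and 7.74 CPM in controls. Its log2 change was 0.64 ± 0.23 (edgeR adjusted p = 0.582). Gins3, a subunit of the replicative helicase, was at -0.72 ± 0.29, and Lin9, a MuvB subunit, at 0.38 ± 0.17.

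Markers of the cell types that could hold dividing cells were counted beside the members. By edgeR 0 markers were called in the 10 lists, against 0.0335% of all genes. Of the tested markers, 5 of 10 interneuron, 3 of 10 radial glia, 3 of 8 microglia, 2 of 6 oligodendrocyte precursor, 2 of 8 excitatory neuron, 1 of 9 endothelial and mural, 1 of 5 intermediate progenitor, 1 of 5 red cell, 0 of 7 astrocyte and 0 of 4 choroid plexus and meninges markers had an unadjusted p under 0.05, against 7% of all genes. Radial glia markers (10 of 10 tested) summed to 1235 to 1484 CPM in knockouts and 1200.2 to 1330 CPM in controls, and intermediate progenitor markers (5 of 6 tested) to 74.3 to 88.2 CPM in knockouts and 67.5 to 78.1 CPM in controls. In the radial glia list Nes had the smallest p, with a log2 change of 0.33 ± 0.13, and in the intermediate progenitor list Eomes, with 9.78, 8.63 and 7.90 CPM in knockouts, against 7.05, 4.96 and 3.67 CPM in controls. Neurog1, a defining intermediate progenitor marker, was at 0 in 5 of 6 libraries. Markers of ganglionic eminence cells and interneurons (10 of 10 tested) summed to 863 to 954 CPM in knockouts and 719 to 781 CPM in controls. Oligodendrocyte precursor markers (6 of 6 tested) summed to 201 to 218 CPM in knockouts and 227 to 269 CPM in controls. These last sums did not overlap between groups, in opposite directions, with the smallest p for Gad2 at 0.51 ± 0.16 and Gpr17 at -0.50 ± 0.18. The sums carry no test and have no background over all genes. Taken singly, 4 of 10 interneuron markers (40%) were higher without overlap, against 5.89% of all genes tested. For oligodendrocyte precursors 1 of 6 markers (16.7%) was lower without overlap, against 6.28%.

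The other sums overlapped. Microglia markers (8 of 8 tested) summed to 127 to 176 CPM in knockouts and 114 to 143 CPM in controls, and endothelial and mural markers (9 of 9 tested) to 237 to 281 CPM in knockouts and 210.1 to 255 CPM in controls, with the smallest p for Csf1r at 0.52 ± 0.16 and Tie1 at 0.82 ± 0.34. Astrocyte markers (7 of 7 tested) summed to 320.3 to 410.2 CPM in knockouts and 340 to 405 CPM in controls, where Aqp4 was at -0.19 ± 0.15 and Gjb6 was at 0 in control A. Excitatory neuron markers (8 of 8 tested) summed to 2733 to 3090 CPM in knockouts and 2849 to 3173 CPM in controls, with Emx1 at -1.05 ± 0.22. Emx1 is also the gene that controls the Cre, which was present in every knockout and in no control. The part of the Cre allele in the Emx1 value was not tested. Red cell markers (5 of 6 tested) summed to 399 to 479 CPM in knockouts and 387 to 546 CPM in controls, with Hbb-bt at -0.30 ± 0.11. Choroid plexus and meninges markers (4 of 7 tested) summed to 4.94 to 74.6 CPM in knockouts and 4.23 to 208 CPM in controls, led by Ttr at 144 CPM in control B, and Folr1, Kl and Lum were each at 0 in 1 library. Calls with the letter block included Gad2, higher, and Emx1 and Slc17a7, lower, with Slc17a7 named after its values were seen, and DESeq2 called Emx1 alone among the markers. The part of these cell types in the values of the 41 genes was not tested.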

How the data were processed

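Polyadenylated RNA of 6 cortical hemispheres was sequenced with the stranded Lexogen SENSE kit, per the labels' protocols. Raw read counts per gene were deposited by the authors, not normalised, as 1 STAR gene table for each library. The submitters' processing notes name STAR 2.5.4 with GRCm38 and mm10, and the annotation release is not given in the sources used here. The strand column with more reads (18.6 times the other) was used. The 4 summary lines of each table, 44.1 to 47.5% of all reads listed, entered neither library sizes nor tests. Multi-mapping reads were listed as 0, so genes with near-identical copies are undercounted. Symbols and coordinates came from GENCODE M21 (52403 of 52550 identifiers).

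Tests used edgeR 4.0.16 (R 4.3.3) with filterByExpr, TMM scaling (factors 0.979 to 1.04) and its robust quasi-likelihood test (two-sided F-test), adjusted over 14913 genes at 0.05. CPM uses TMM-scaled library sizes, the SE is the size of the log2 change divided by the square root of F, and the script was tested on simulated data. Alternatives were DESeq2 1.42.0, RLE size factors, no filter on low counts, the letter as a block, unstranded counts and leaving out each library. Members in full were those called, those with the 6 smallest p and those with the highest level per kilobase in each class. Of the other cell cycle genes those called, or else the 3 with the smallest p, were named, and of each cell type list the gene with the smallest p and markers at 0. Further members are given by means and SDs. The members and lists were chosen with earlier results of these data known. A marker gene that the block called is not reported here.

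Same-letter knockouts and controls deviated together from their group means across genes (r = 0.417, 0.342 and 0.211 for A, B and C). Other pairs were at most -0.0310. Deviations from a group mean cancel within the group, so positive same-letter values push the other pairs negative, which adds no separate evidence. Without genes on X and Y, same-letter r was 0.393, 0.242 and 0.182 for A, B and C. The highest other pair was then knockout B with control C, at 0.036. The letters were taken as pairs from the same-letter values in the data, not from the labels. This was done in the block fit and in the values within letters. The main edgeR fit used genotype only, so its SEs, intervals and p-values leave this pairing out. Within each genotype, every pair of libraries differed by more than counting noise, with a chi-square of at least 7.59 per degree of freedom.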

Additional observations from a re-analysis of the deposited data

How the results depend on the processing

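No member was called under any of the 11 alternatives. Over all genes, the count of calls, 5 by edgeR, was 26 by DESeq2, 71 with no filter on low counts, 126 with the replicate block and 1 to 9 without 1 library (1 without knockout B, 9 without knockout C). The block, whose pairing rests on the data and not on the labels, changed no call of a member, with 0 of 41 called and a median of 0.064. Slc7a5 was called by DESeq2 at -1.26 (adjusted p = 7.09e-04) and with no filter at -1.25 (adjusted p = 5.02e-11), and without 1 library it lay between -1.47 and -0.93. Without 1 library the median of the members lay between -0.0031 and 0.11, of G1 genes between -0.074 and 0.050, of replication genes between 0.0073 and 0.11, of mitotic genes between -0.022 and 0.11, and the G1 minus mitotic difference between -0.15 and 0.0085. The negative medians of the members and of the mitotic genes and the highest difference came without control C. With unstranded counts that difference was 0.022, the G1 sum was 1007 CPM in knockouts and 950.3 CPM in controls, the mitotic sum was 278 CPM in knockouts, and Ccnd1 was at 0.014 with the other sign. Unstranded counting loses reads where genes overlap on opposite strands, and Ccnd1 kept 598 of 3445 reads. Of 451 member values under the alternatives, 406 kept their sign and side of the threshold and 45, in 25 members, changed sign. Apart from Ccnd1 with unstranded counts, these came from leaving out 1 library, with log2 changes of Ccnd1 -0.13 to 0.042, Ccne2 -0.10 to 0.20, Cdk4 -0.11 to 0.19, Cdk6 -0.14 to 0.015, Cdkn1c -0.023 to 0.18, Mcm3 -0.024 to 0.23, Mcm4 -0.11 to 0.089, Mcm5 -0.060 to 0.17, Mcm6 -0.0095 to 0.15, Pcna -0.26 to 0.11, Rrm2 -0.036 to 0.22, Tyms -0.16 to 0.087, Mki67 -0.022 to 0.37, Top2a -0.098 to 0.071, Ccna2 -0.13 to 0.081, Ccnb1 -0.19 to 0.086, Cdk1 -0.35 to 0.039, Cenpa -0.23 to 0.094, Bub1 -0.27 to 0.46, Bub1b -0.049 to 0.023, Aurka -0.12 to 0.36, Plk1 -0.30 to 0.049, Ube2c -0.019 to 0.23, Tpx2 -0.0085 to 0.35 and Kif11 -0.20 to 0.12. Their signs rest on single libraries, and the cause was not tested. Depth limits the rarest members most, as for Bub1 at 11 to 37 reads per library.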

Other observations

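Reads on the strand opposite to a member were counted in the same libraries. They do not show which members share their locus. Ccnd2, with 9330179D12Rik and Gm43126 annotated opposite, had 0.113% of its reads there. Summed over the 6 libraries, 28 of the 41 members had under 1% of their reads on the opposite strand, and 2 had more than on their own. At Ccna2, cyclin A, 4731 reads lay on the opposite strand, where GENCODE M21 places Exosc9, a subunit of the RNA exosome, against 590 reads on its own strand (88.9% opposite). At Ccne2, cyclin E, 880 reads lay opposite, where Ints8 is annotated, against 228 on its own strand (79.4% opposite). Smaller shares lay opposite Nusap1 (17.5%, beside Oip5), Cdk4 (16.2%, beside Tspan31) and Aurka (16.1%, with no gene annotated there).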
